A study of Arabidopsis thaliana with 6 samples.

Results

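Dark-grown seedlings mutant in FYPP1 and FYPP3, the genes for catalytic subunits of protein phosphatase 6 (PP6), were compared with wild-type seedlings across the nuclear genome of Arabidopsis thaliana. The mutant, f1f3, is homozygous for fypp1 and fypp3, and the wild type is Col. RNA came from seedlings after 4 days of darkness at 22 °C, which had followed 3 days of stratification at 4 °C and 12 h of white light. Each genotype had 2 biological replicates, with 1 library each, and 4 of the 6 libraries of the series therefore enter the comparison. The other 2, from a pif mutant called pifq, serve here only in the shared estimate of spread. A gene was tested when its deposited value, gene reads divided by a library size factor, was at least 10 in at least 2 of the 4 libraries. This held for 20220 of the 24439 genes in the files, and the other 4219 were not tested.

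PP6 is a serine/threonine phosphatase built from a catalytic subunit, a regulatory SAPS subunit and a scaffold subunit that it shares with PP2A. In Arabidopsis it is known for removing phosphate from PIN auxin carriers, from the abscisic acid factor ABI5 and from PIF transcription factors, and the series asks how it acts on PIFs to restrain light-type development in the dark. A seedling in darkness lives on seed oil, extends its hypocotyl mainly by cell expansion, and keeps its cotyledons and shoot apex small.

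The libraries held 20.2 M and 21.6 M reads on genes in f1f3, against 17.9 M and 23.8 M in Col. The 10 most abundant genes took 6.44% and 5.68% of the reads in f1f3, against 8.56% and 6.83% in Col, and the median absolute log2 difference between replicates was 0.294 in f1f3 and 0.268 in Col. Summed values of 11 root hair and root epidermis genes were 37749 and 48368 in f1f3, against 8055 and 15604 in Col. The wall protein genes PRP3, EXT10, LRX1 and EXT13 made up most of that sum. The root hair regulator RHD6 had 52.9 and 107 in f1f3, against 50.1 and 107 in Col, and the root iron transporter IRT1 had 22.2 and 0.9 in f1f3, against 278 and 1660.2 in Col. Of 12 seed storage and late embryogenesis genes 5 were tested, and the summed values of these 5 were at most 163 in a library. SESA4, which was not tested, was at 0 in f1f3. The samples are bulk seedlings, so a change in the number of cells of a type and a change of RNA per cell cannot be told apart.

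A large share of the transcriptome differed between f1f3 and Col. Limma, fitted on log2 of the value plus 1 with a Benjamini-Hochberg adjusted p threshold of 0.05, called 5035 of the 20220 genes tested, or 24.9%. Of these 2393 rose (11.8%) and 2642 fell (13.1%), and 8000 genes had an unadjusted p under 0.05. The f1f3 and Col libraries did not overlap for 13401 genes, or 66.3%, and for none of the genes called did they overlap. The falls were steeper, with 534 called genes lower and 204 higher by more than 4-fold, and 173 lower and 55 higher by more than 8-fold. How many genes were called depended on each library. The fit called 3528, 1598, 2637 and 1987 genes without f1f3 replicate 1, f1f3 replicate 2, Col replicate 1 and Col replicate 2, and the rises among them numbered 1360, 610, 1262 and 870. Where counts without a library are given below in a row of 4, they follow this order of libraries. Scaling by library totals shifted the median log2 fold change of all genes by 0.121, and then 58.3% of the calls were rises, against 47.5% with the deposited scaling.

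**Figure D1:**
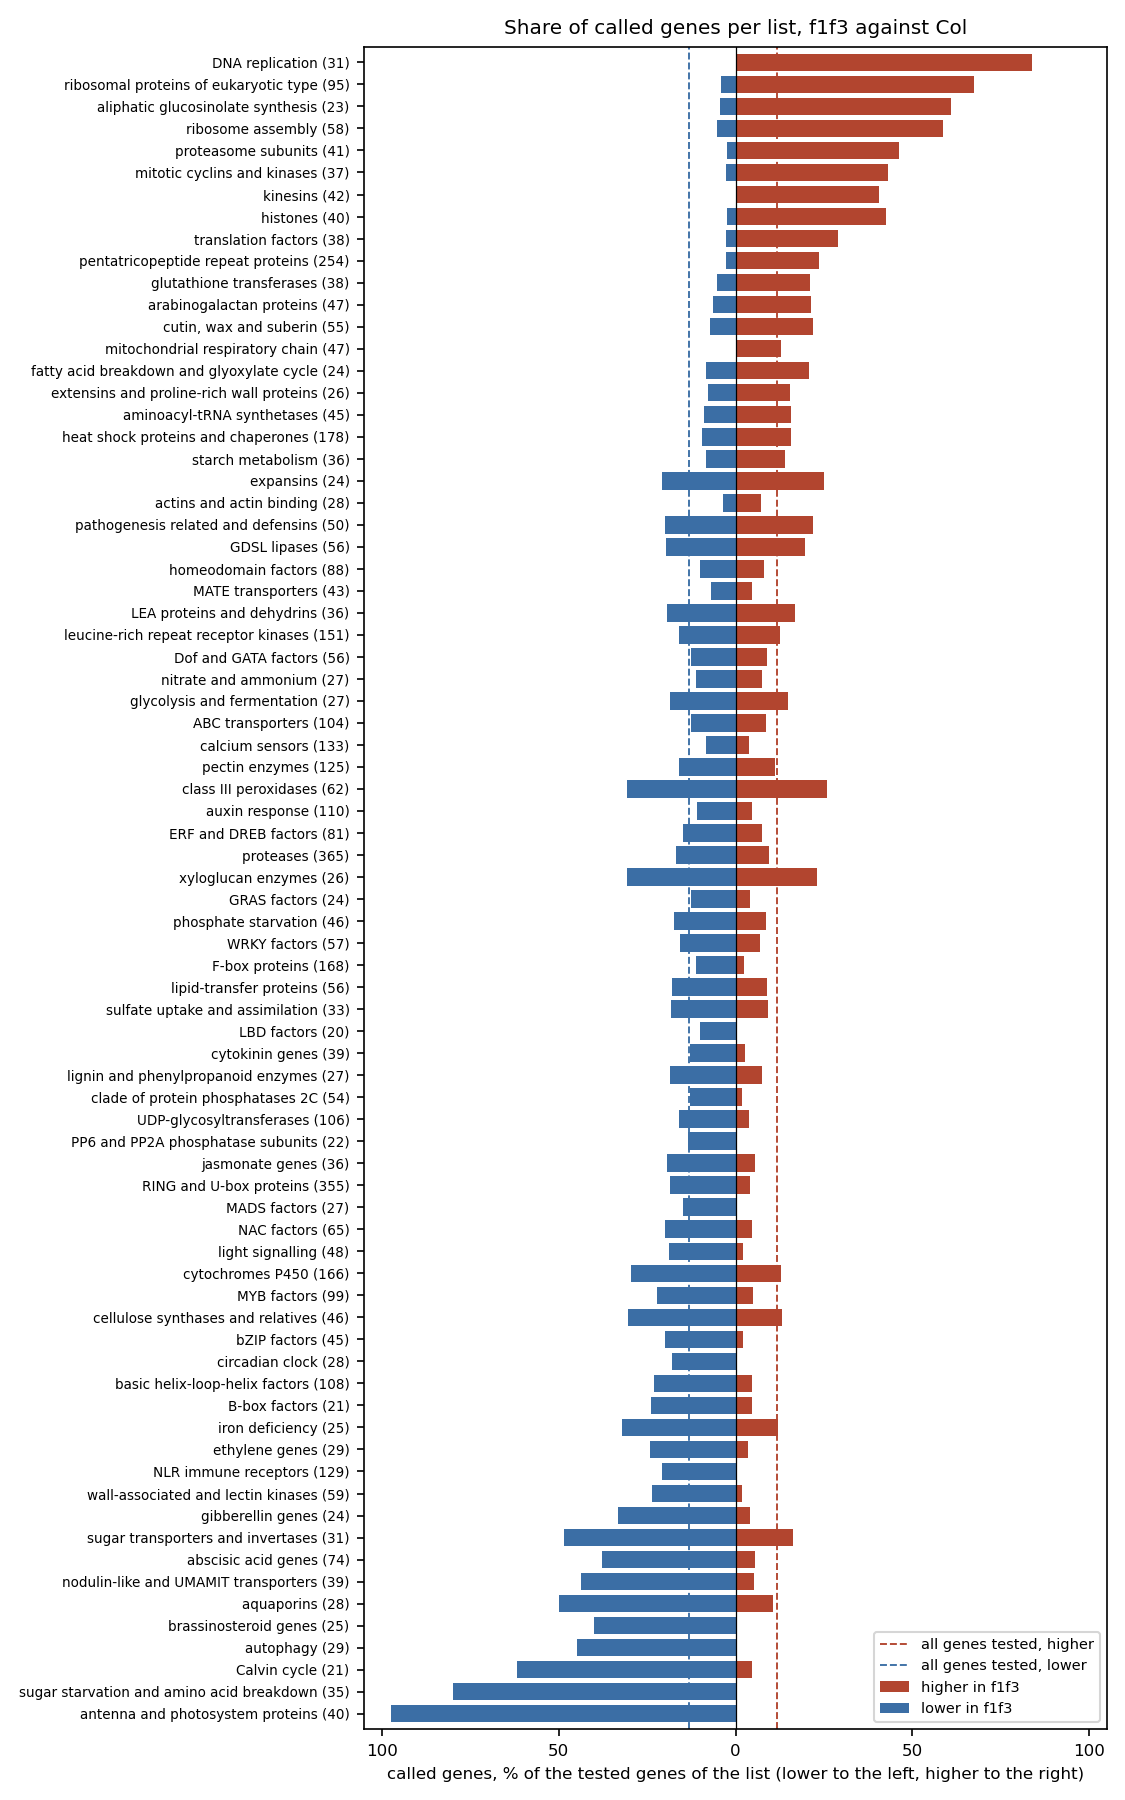
Share of the tested genes of each list called higher (right, red) or lower (left, blue) in f1f3 than in Col, in percent, for lists with at least 20 tested genes, whose numbers stand in brackets. Dashed lines mark the shares over all genes tested, 11.8% higher and 13.1% lower. DNA replication and ribosomal protein genes stand at the top, sugar starvation and antenna genes at the bottom.

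The transcripts of the mutated genes were reduced but present. FYPP1 (AT1G50370, chr1:18658508-18662052, plus strand, TAIR10.1) had 386 and 285 in f1f3, against 712 and 759 in Col (log2 fold change -1.14, SE 0.21, adjusted p = 0.00849). FYPP3 (AT3G19980, chr3:6961736-6965206, plus strand) had 285 and 259.8 in f1f3, against 583 and 597 in Col (log2 fold change -1.11, SE 0.19, adjusted p = 0.00742). The labels do not place the mutations within the genes, so reads from intact parts of a transcript can remain. In both genes every f1f3 value lay below every Col value, and the adjusted p of FYPP1 was 0.0518 without f1f3 replicate 2. Of 22 genes for PP6 and PP2A subunits, 3 fell and 0 rose, and 2, 1, 2 and 2 fell with each library left out in turn. The third was PP2A-1 (AT1G59830), a PP2A catalytic subunit that overlaps a gene on the other strand, at -0.56 with an adjusted p of 0.0446, which was 0.0559 without f1f3 replicate 1, 0.201 without f1f3 replicate 2, 0.186 without Col replicate 1 and 0.133 without Col replicate 2. The 3 falls were 13.6% of the list, near the background of 13.1%, and included FYPP1 and FYPP3 themselves. The median over the list was 0.05, and it changed sign in at least 1 of the settings tried.

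Genes that make ribosomes rose in large numbers. Of 95 tested genes for ribosomal proteins of eukaryotic type 64 rose and 4 fell, with a median log2 fold change of 1.08, against 0.00 over all genes tested. Of 58 genes for ribosome assembly in the nucleolus 34 rose and 3 fell (median 0.96), and of 38 translation factors 11 rose and 1 fell (median 0.50). The summed value of the ribosomal list was 442019 and 386068 in f1f3, against 221356 and 180015 in Col. RPL23AB (AT3G55280), a protein of the large subunit, had 3459 and 3068 in f1f3, against 1241 and 849.8 in Col (log2 fold change 1.66, SE 0.23, adjusted p = 0.00399). FIB2 (AT4G25630), a fibrillarin that methylates ribosomal RNA, had 2711 and 3392 in f1f3, against 623 and 545 in Col (log2 fold change 2.38, SE 0.28, adjusted p = 0.00273). NOP56 (AT1G56110), its partner in the same small nucleolar particle, had 3594 and 5275 in f1f3, against 1178 and 1309 in Col (log2 fold change 1.81, SE 0.23, adjusted p = 0.00316). In all 3 genes the lower f1f3 library lay above the higher Col library by more than the gap between replicates. Among those that fell, AT3G14595, AT1G53560 and RPL18AA, all of the L18ae type, had log2 fold changes of -1.41, -1.22 and -1.15. Among genes of the assembly list TRM27 (AT2G36420), described as nucleolin-like, had 365 and 277 in f1f3, against 794 and 838 in Col, with a log2 fold change of -1.36 and an adjusted p of 0.00416. Aminoacyl-tRNA synthetases, which charge tRNAs, stayed near the background, with 7 of 45 higher and 4 lower, or 2 lower with library totals. ATKRS-1 (AT3G11710), the lysyl-tRNA synthetase, rose by 1.03 on the log2 scale with an adjusted p of 0.00917, which was 0.0554 without f1f3 replicate 2.

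The counts of these lists moved with the libraries. The ribosomal protein genes that rose without f1f3 replicate 1, f1f3 replicate 2, Col replicate 1 and Col replicate 2 numbered 35, 34, 48 and 25, those for assembly 33, 10, 20 and 20, translation factors 5, 0, 1 and 2, and aminoacyl-tRNA synthetases 6, 0, 1 and 1. With library totals 17 translation factors rose. The adjusted p was 0.118 without f1f3 replicate 2 and 0.111 without Col replicate 1 for AT3G14595, 0.119 without f1f3 replicate 2, 0.105 without Col replicate 1 and 0.0654 without Col replicate 2 for AT1G53560 and 0.0617 without f1f3 replicate 2 for RPL18AA. Near-identical ribosomal copies can share reads, so values of single copies are uncertain. FIB2 and RPL18AA overlap an annotated gene on their strand and NOP56 and AT1G53560 one on the other strand, and since the kit's strand setting is not given, reads of such neighbours cannot be told apart.

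Some families that fold proteins or handle RNA held many rises, and others held few. Under the shared description TCP-1/cpn60 chaperonin, barrel-shaped folding machines of cytosol, plastid and mitochondrion, 11 of 13 genes rose. HSP60-2 (AT2G33210), a mitochondrial chaperonin, had 1573 and 1889.8 in f1f3, against 494 and 589 in Col (log2 fold change 1.68, SE 0.21, adjusted p = 0.00316). Of 11 genes described as ribosomal L7Ae family 9 rose, of 18 DEA(D/H)-box RNA helicases, which unwind RNA, 10, of 22 small nuclear ribonucleoproteins of the spliceosome 9, of 26 OB-fold nucleic acid binding proteins 10, and of 17 pseudouridine synthases, which modify RNA, 7 rose and 1 fell. Of 20 AAA-type ATPases 9 rose and 1 fell. Outside RNA, 6 of 10 endomembrane protein 70 genes rose. These descriptions were picked for their shares from 198 with at least 10 tested genes, after the values were seen, so their counts are descriptions. With each library left out in turn, the rises numbered 11, 5, 8 and 6 for chaperonins, 6, 6, 8 and 4 for the L7Ae family, 9, 2, 5 and 4 for DEA(D/H)-box helicases and 3, 2, 4 and 3 for small nuclear ribonucleoproteins. They numbered 5, 4, 8 and 3 for OB-fold proteins, 5, 0, 1 and 2 for pseudouridine synthases, 9, 2, 3 and 3 for AAA-type ATPases and 1, 0, 1 and 0 for endomembrane protein 70. Rises were in shares below the background of 11.8% in other families of these kinds. Of 101 genes described as RNA-binding with RRM motifs 9 rose and 6 fell, of 19 with a KH domain 2 rose and 1 fell, of 10 of the RNA helicase family 0 rose and 1 fell, and of 49 of the DnaJ-domain superfamily 1 rose and 8 fell. The whole list of 178 heat shock proteins and chaperones was divided, with 28 higher and 17 lower. On its lower side J8 (AT1G80920), a plastid J-domain protein, had 519 and 293 in f1f3, against 2366 and 3256 in Col, at -2.83 with an adjusted p of 0.00345. J8 overlaps a gene on the other strand. Rises in that list numbered 21, 7, 16 and 12 without f1f3 replicate 1, f1f3 replicate 2, Col replicate 1 and Col replicate 2.

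**Figure D2:**
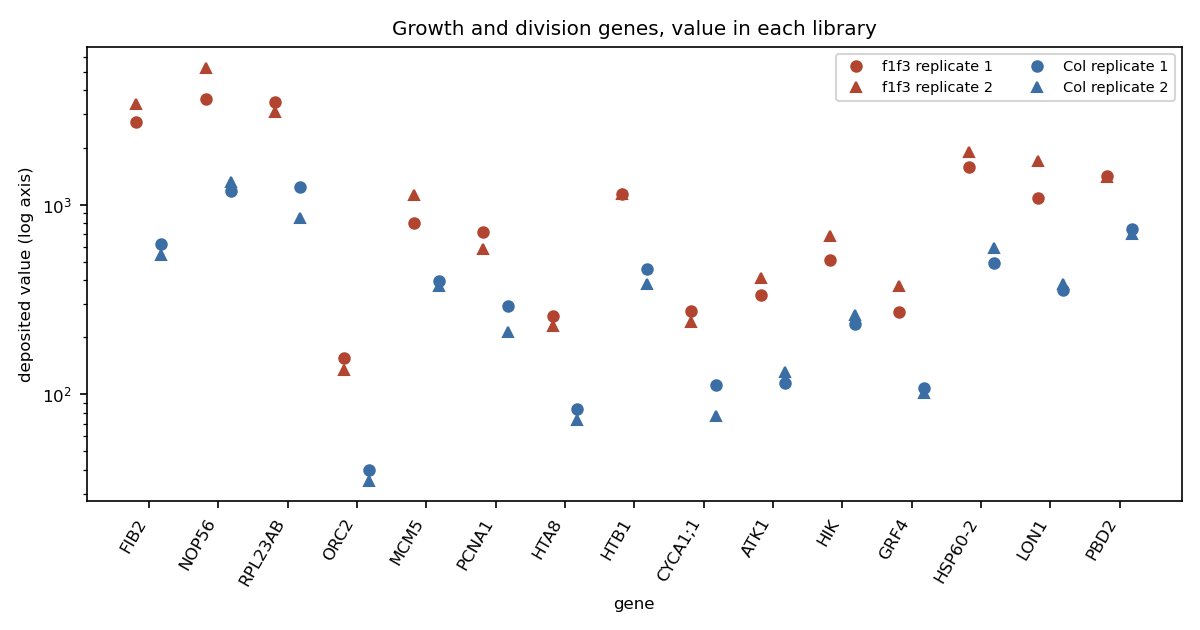
Deposited value (log axis) in each f1f3 (red) and Col (blue) library of 15 genes of ribosome assembly, replication, chromatin, mitosis, growth regulation, folding and proteolysis, with circles for replicate 1 and triangles for replicate 2. In each gene both f1f3 points lie above both Col points, a separation that the rule for naming genes required of most of them.

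DNA replication genes rose in the highest share among the 94 lists, 26 of 31 genes with 0 lower and a median of 1.21. These genes load the helicase on origins and copy the DNA, and many are known to be under E2F transcription factors, which switch on S phase. ORC2 (AT2G37560), a subunit of the origin recognition complex, had 156 and 134 in f1f3, against 39.8 and 35.0 in Col (log2 fold change 1.93, SE 0.29, adjusted p = 0.00505). MCM5 (AT2G07690) and MCM6 (AT5G44635), subunits of the replicative helicase named for their promoters, had log2 fold changes of 1.30 and 1.32, with adjusted p of 0.00585 and 0.00875. CDT1B (AT3G54710), a loader of that helicase, had 132 and 138 in f1f3, against 24.4 and 60.4 in Col, with adjusted p of 0.0597 without f1f3 replicate 1, 0.0877 without f1f3 replicate 2 and 0.0625 without Col replicate 1. An E2F site (TTTCCCGC, TTTGGCGC or TTCCCGCC on either strand) lay within 250 bases before to 50 after the annotated start in 54.8% of the 31 genes, against 1.64% of all 19574 promoters of tested protein-coding genes. The 250 bases before the start of ORC2 (chr2:15758351-15758600, plus strand), MCM6 (chr5:18010668-18010917, minus strand) and MCM5 (chr2:3527501-3527750, minus strand) show it, read from the TAIR10.1 genome on the strand of the gene, with E2F sites in capitals. They were taken as called members with a site and no annotated exon in the window, largest change first, and the other printed promoters were taken in the same way.
ORC2: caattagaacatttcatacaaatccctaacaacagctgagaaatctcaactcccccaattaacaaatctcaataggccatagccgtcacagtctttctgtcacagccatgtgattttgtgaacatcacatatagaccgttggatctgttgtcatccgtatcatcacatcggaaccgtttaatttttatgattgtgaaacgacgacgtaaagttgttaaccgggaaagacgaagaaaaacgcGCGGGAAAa
MCM6: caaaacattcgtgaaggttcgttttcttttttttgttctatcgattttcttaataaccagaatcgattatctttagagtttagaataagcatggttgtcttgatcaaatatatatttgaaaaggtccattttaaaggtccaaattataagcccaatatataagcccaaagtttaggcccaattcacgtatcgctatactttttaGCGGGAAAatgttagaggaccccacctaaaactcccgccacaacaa
MCM5: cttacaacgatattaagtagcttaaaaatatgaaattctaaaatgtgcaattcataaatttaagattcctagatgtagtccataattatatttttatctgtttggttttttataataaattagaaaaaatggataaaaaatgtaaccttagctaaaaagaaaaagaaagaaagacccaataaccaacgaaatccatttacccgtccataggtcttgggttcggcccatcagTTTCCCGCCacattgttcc
The nearest site lies 9 bases before the start in ORC2, 46 in MCM6 and 18 in MCM5. A match describes letters and shows no binding.

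Chromatin and mitosis genes rose as well, in smaller shares. Of 40 histone genes 17 rose and 1 fell, of 37 mitotic cyclins and kinases 16 and 1, and of 42 kinesins, motors of spindle and phragmoplast among them, 17 and 0. HTB1 (AT1G07790), an H2B histone, had 1139 and 1132 in f1f3, against 459 and 382 in Col (log2 fold change 1.44, SE 0.17, adjusted p = 0.00288). HTA8 (AT2G38810), an H2A variant, had 259 and 230.0 in f1f3, against 83.5 and 73.5 in Col (log2 fold change 1.63, SE 0.30, adjusted p = 0.00928). The histone that fell was HIS1-3 (AT2G18050), the drought-induced linker histone, at 64.6 and 62.3 in f1f3, against 225 and 161 in Col, with an adjusted p of 0.00817 that was 0.0519 without Col replicate 1. CYCA1;1 (AT1G44110), a cyclin of the S and M phases, had 276 and 241 in f1f3, against 112 and 77.0 in Col. ATK1 (AT4G21270), a kinesin that gathers spindle poles, had 332 and 411 in f1f3, against 114 and 130.4 in Col (log2 fold change 1.59, SE 0.21, adjusted p = 0.00381). In each of these genes the 2 genotypes were separated by more than the difference between replicates. CDKB1;1 (AT3G54180), a mitotic kinase, rose by 1.51 on the log2 scale (adjusted p = 0.0183), but the adjusted p was 0.0545 without f1f3 replicate 1, 0.0894 without f1f3 replicate 2 and 0.0904 without Col replicate 2.

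Of 18 DNA damage response genes 8 rose and 0 fell. NAC044 (AT3G01600), a factor that halts the cycle at G2 after damage, had 172 and 214 in f1f3, against 21.8 and 26.3 in Col, at 2.95 with an adjusted p of 0.00225, and the call held when each of the 4 libraries was left out. Of 12 growth-regulating factors and partners, which prolong division in young leaves, 5 rose and 0 fell. GRF4 (AT3G52910) had 272 and 372 in f1f3, against 108 and 102 in Col (log2 fold change 1.59, SE 0.24, adjusted p = 0.00523). Rises without f1f3 replicate 1, f1f3 replicate 2, Col replicate 1 and Col replicate 2 numbered 23, 11, 17 and 18 for DNA replication, 6, 10, 11 and 5 for histones, 11, 3, 9 and 3 for mitotic cyclins and kinases, and 16, 3, 5 and 10 for kinesins. They numbered 7, 2, 3 and 3 for the damage response and 5, 2, 3 and 3 for growth-regulating factors, which were 3 with the 4 f1f3 and Col libraries alone in the fit. Histone copies can share reads, and CDKB1;1 overlaps a gene on the other strand.

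**Figure D3:**
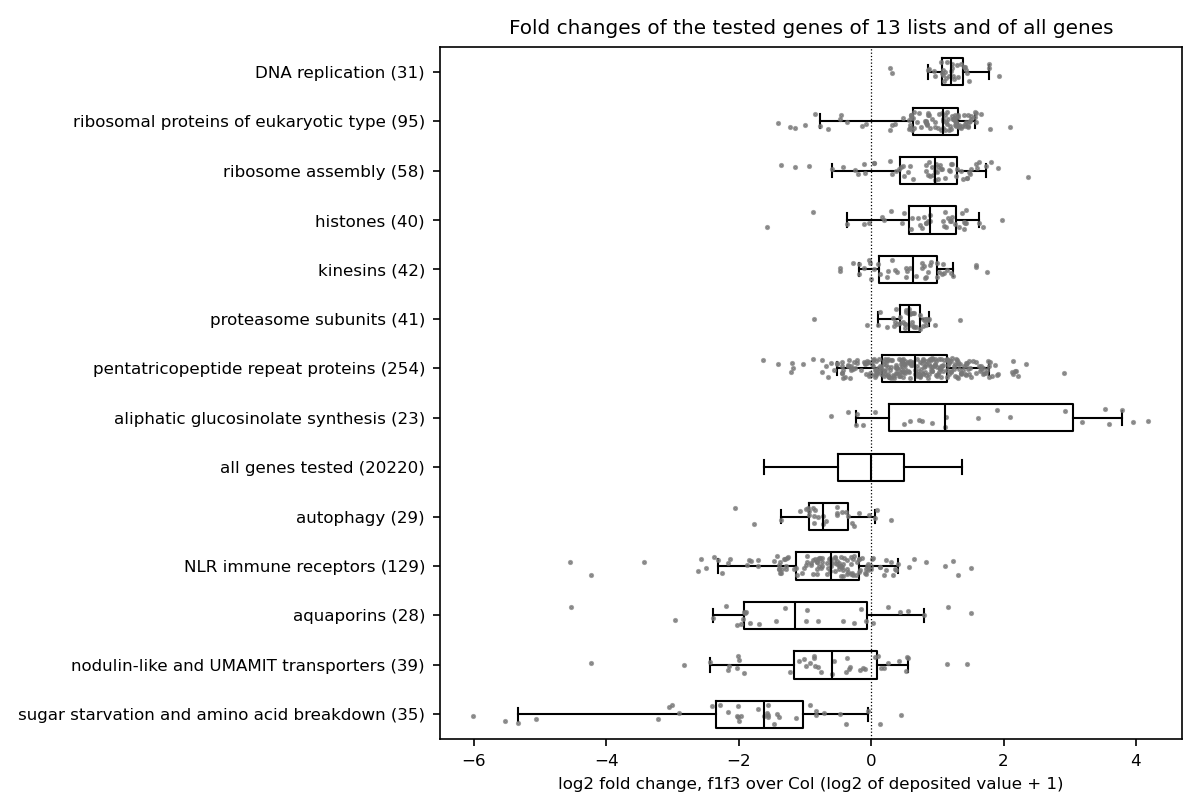
Log2 fold change of f1f3 over Col on the log2(value + 1) scale for the tested genes of 13 lists (grey points, 1 per gene) and for all 20220 genes (box without points). Boxes span the quartiles with a line at the median, and whiskers reach the 5th and 95th percentile. The DNA replication box lies above 1 and the sugar starvation box below -1.

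Proteasome genes rose in number and autophagy genes, of another route of protein breakdown, fell. Of 41 proteasome subunits, which form the complex that degrades ubiquitin-tagged proteins, 19 rose and 1 fell (median 0.58). PBD2 (AT4G14800), of the proteolytic core, had 1414 and 1400.0 in f1f3, against 745 and 697 in Col (log2 fold change 0.96, SE 0.17, adjusted p = 0.0076). RPN8A (AT5G05780), of its cap, had 3140.0 and 2926 in f1f3, against 1650.1 and 1656 in Col, and its adjusted p of 0.0092 was 0.0541 without Col replicate 2. These changes were below 2-fold, with replicates close together. Of 29 autophagy genes, which build vesicles that carry cell contents to the vacuole, 0 rose and 13 fell (median -0.72). ATG8E (AT2G45170) and ATG8F (AT4G16520) encode ubiquitin-like proteins that coat these vesicles. ATG8E had 307 and 205 in f1f3, against 914 and 1185 in Col (log2 fold change -2.05, SE 0.33, adjusted p = 0.00607). ATG8F had 625 and 517 in f1f3, against 1716 and 2183 in Col (log2 fold change -1.77, SE 0.24, adjusted p = 0.00389). ATG18G (AT1G03380) fell at -1.36 with an adjusted p of 0.00626.

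Proteins of ubiquitin ligase families choose which proteins are tagged. Of 355 RING and U-box proteins 14 rose and 66 fell (18.6%), and of 168 F-box proteins 4 and 19 (11.3%), against 13.1% of all genes. Only tested genes are counted, which were 355 of 425 RING and U-box genes and 168 of 289 F-box genes in the files. ATL8 (AT1G76410), a membrane RING ligase known to be repressed by sugar, had 55.1 and 49.2 in f1f3, against 526 and 445 in Col (log2 fold change -3.19, SE 0.23, adjusted p = 0.000857). AT2G17036, an F-box gene, had 13.8 and 12.3 in f1f3, against 135 and 164 in Col, at -3.42. Of 365 proteases 34 rose and 62 fell, with a median near 0 that changed sign between scalings, and 23, 10, 20 and 10 rose with each library left out in turn. LON1 (AT5G26860), the protease that removes damaged proteins from mitochondria, had 1084 and 1706 in f1f3, against 355 and 379.8 in Col (log2 fold change 1.89, SE 0.26, adjusted p = 0.00384), while scpl2 (AT1G73300), a serine carboxypeptidase-like gene, had 12.7 and 3.5 in f1f3, against 314 and 192 in Col. With f1f3 replicate 1, f1f3 replicate 2, Col replicate 1 and Col replicate 2 left out in turn, 3, 5, 7 and 1 proteasome genes rose, 8, 4, 7 and 4 autophagy genes fell, 54, 18, 26 and 27 RING and U-box genes fell and 14, 5, 8 and 3 F-box genes fell. PBD2 and ATG18G overlap a gene on the other strand and scpl2 one on its strand.

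Genes that plants turn on when sugar runs short were lower in f1f3. Of 35 genes for sugar starvation and amino acid breakdown 28 fell and 0 rose, with a median of -1.62, and 25, 22, 23 and 21 fell without f1f3 replicate 1, f1f3 replicate 2, Col replicate 1 and Col replicate 2. ASN1 (AT3G47340), an asparagine synthetase also called DARK INDUCIBLE 6, had 422 and 48.3 in f1f3, against 8736 and 9917 in Col. The 2 f1f3 libraries differed several-fold from each other, yet both lay far below Col. BCAT-2 (AT1G10070), which starts the breakdown of branched-chain amino acids, had 45.5 and 33.4 in f1f3, against 1333 and 2561 in Col. TPS8 (AT1G70290) and TPS11 (AT2G18700) are class II trehalose phosphate synthase genes known to be repressed by sugar. TPS11, taken for its promoter, had 544 and 399 in f1f3, against 2036 and 3032 in Col (log2 fold change -2.41, SE 0.33, adjusted p = 0.00399). TPS8, taken for the same reason, had 749 and 599.5 in f1f3, against 2244 and 3232 in Col (log2 fold change -2.01, SE 0.29, adjusted p = 0.0046). The I-box GATAAG, first described in promoters of photosynthesis genes, lay in the promoters of 34.3% of these 35 genes, and TATCCA, known from sugar-repressed rice amylase promoters, in 31.4%. Among all promoters the shares were 14.7% and 16.4%. The 250 bases before the start of BCAT-2 (chr1:3287837-3288086, plus strand), TPS11 (chr2:8108648-8108897, plus strand) and TPS8 (chr1:26474834-26475083, minus strand) are shown with the I-box in capitals, on the strand of the gene in TAIR10.1.
BCAT-2: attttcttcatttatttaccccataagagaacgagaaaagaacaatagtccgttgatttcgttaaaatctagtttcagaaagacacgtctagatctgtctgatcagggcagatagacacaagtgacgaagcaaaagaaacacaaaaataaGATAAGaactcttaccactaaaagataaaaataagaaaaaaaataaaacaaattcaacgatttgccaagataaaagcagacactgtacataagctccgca
TPS11: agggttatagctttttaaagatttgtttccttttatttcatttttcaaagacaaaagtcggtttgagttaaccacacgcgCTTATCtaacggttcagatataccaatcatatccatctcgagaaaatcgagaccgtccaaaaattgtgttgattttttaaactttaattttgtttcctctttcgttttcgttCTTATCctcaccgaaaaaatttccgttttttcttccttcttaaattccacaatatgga
TPS8: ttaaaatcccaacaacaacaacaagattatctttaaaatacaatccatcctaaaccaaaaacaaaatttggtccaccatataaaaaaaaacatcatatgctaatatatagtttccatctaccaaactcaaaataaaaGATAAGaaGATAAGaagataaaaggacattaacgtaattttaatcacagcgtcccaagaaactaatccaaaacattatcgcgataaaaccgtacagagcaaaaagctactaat
BCAT-2 has 1 match, TPS11 2 and TPS8 2. ASN1 and BCAT-2 overlap a gene on the other strand.

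Transporters of sugar and amino acids fell in many cases. Of 31 sugar transporters and invertases 5 rose and 15 fell (median -0.52). SWEET11 (AT3G48740), which exports sucrose from leaf phloem cells, had 846 and 456 in f1f3, against 4215 and 2759 in Col (log2 fold change -2.46, SE 0.32, adjusted p = 0.0033). SWEET3 (AT5G53190) had 3 reads in f1f3, against 266 in Col, over both libraries of each, a Col to f1f3 ratio of 96.2 with an exact 95% interval of 32.6 to 469 for counting error. SWEET3 passed the filter on low values only through Col. On the other side ATBETAFRUCT4 (AT1G12240), a vacuolar invertase, had 3988 and 2908 in f1f3, against 2029 and 1618 in Col, with an adjusted p of 0.0192 that was 0.0785 without f1f3 replicate 1 and 0.114 without Col replicate 2. Of 39 nodulin-like and UMAMIT transporters, which include amino acid exporters, 2 rose and 17 fell. UMAMIT17 (AT4G08300) had 27.5 and 41.3 in f1f3, against 713 and 600.4 in Col (log2 fold change -4.24, SE 0.26, adjusted p = 0.000715). Falls among sugar genes numbered 14, 8, 12 and 9, and among nodulin-like genes 10, 8, 9 and 7, without f1f3 replicate 1, f1f3 replicate 2, Col replicate 1 and Col replicate 2. With a filter at a value of 50 in place of 10, 3 sugar genes rose.

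Among aquaporins, the water channels of plasma membrane and vacuole, 14 of 28 fell and 3 rose, with a median of -1.15. TIP2;2 (AT4G17340) of the vacuole had 5397 and 2282 in f1f3, against 21499 and 15766 in Col (log2 fold change -2.39, SE 0.39, adjusted p = 0.00602). TIP2;3 (AT5G47450) had 1729 and 549.5 in f1f3, against 8199 and 7033 in Col, and by ratio the f1f3 libraries differed from each other more than the Col libraries did. BETA-TIP (AT1G17810), a vacuolar channel known from seeds, had 22.2 and 5.3 in f1f3, against 308 and 250.3 in Col (log2 fold change -4.53, SE 0.57, adjusted p = 0.00316) and overlaps a gene on the other strand. PIP2;8 (AT2G16850), in contrast, had 675 and 682 in f1f3, against 298 and 191 in Col (log2 fold change 1.505, adjusted p = 0.00612). The falls numbered 13, 8, 8 and 10 without f1f3 replicate 1, f1f3 replicate 2, Col replicate 1 and Col replicate 2, and with library totals 5 aquaporins rose.

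**Figure D4:**
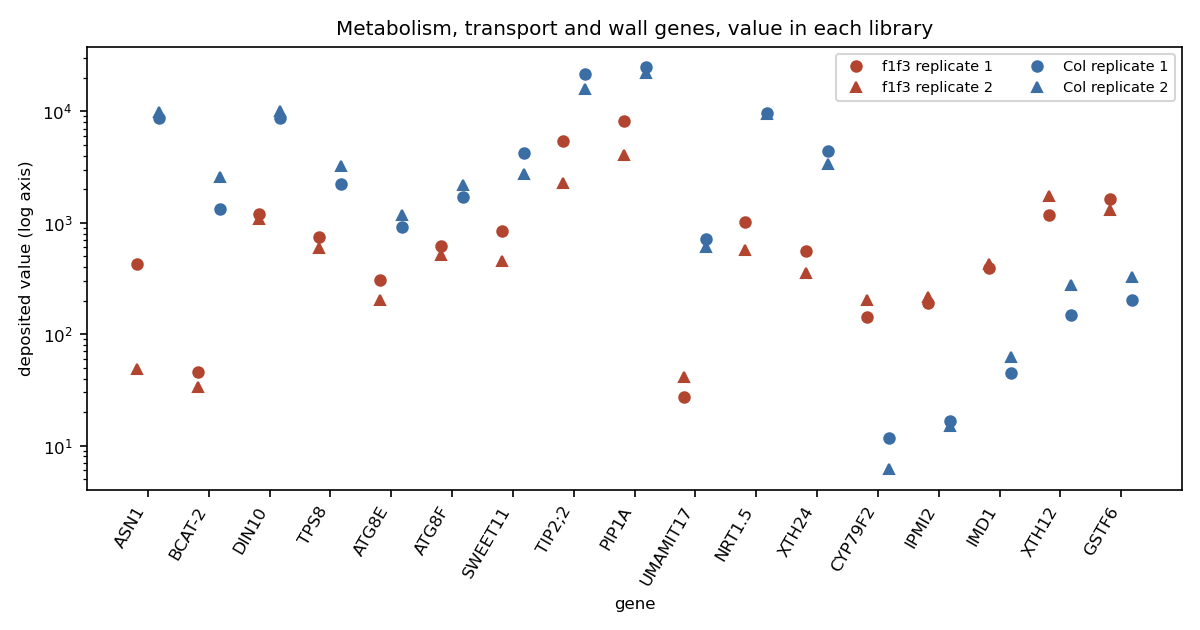
Deposited value (log axis) in each f1f3 (red) and Col (blue) library of 17 genes of sugar response, autophagy, transport, cell wall, glucosinolate synthesis and detoxification, with circles for replicate 1 and triangles for replicate 2. From ASN1 to XTH24 both f1f3 points lie below both Col points, and from CYP79F2 to GSTF6 both lie above. The rule for naming genes required this separation of most of them.

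Central carbon metabolism showed no common direction over its lists. Of 24 genes for fatty acid breakdown and the glyoxylate cycle, the route from seed oil to sugar, 5 rose and 2 fell. MFP2 (AT3G06860), an enzyme of peroxisomal beta-oxidation, had 12786 and 16008 in f1f3, against 5187 and 5296 in Col (log2 fold change 1.45, SE 0.25, adjusted p = 0.00764). MLS (AT5G03860), malate synthase of the glyoxylate cycle, had 25374 and 25633 in f1f3, against 8388 and 7419 in Col, with an adjusted p of 0.0113 that was 0.056 without f1f3 replicate 2 and 0.0569 without Col replicate 2. PMDH2 (AT5G09660), a peroxisomal malate dehydrogenase, had 1718 and 1239 in f1f3, against 3646 and 3585 in Col (log2 fold change -1.31, SE 0.20, adjusted p = 0.00489). Of 36 starch genes 5 rose and 3 fell. APL3 (AT4G39210), a large subunit of ADP-glucose pyrophosphorylase of sink tissue, had 1107 and 2004 in f1f3, against 446 and 481 in Col, while APL1 (AT5G19220), that of leaves, had 155 and 121 in f1f3, against 293 and 358 in Col. The log2 fold changes were 1.68 and -1.24, and the adjusted p of APL3 was 0.0551 without f1f3 replicate 2. Of 27 glycolysis and fermentation genes 4 rose and 5 fell. The falls included SUS1 (AT5G20830), a sucrose synthase, with 294 and 345 in f1f3, against 987 and 973 in Col (log2 fold change -1.62, SE 0.22, adjusted p = 0.00373). ADH1 (AT1G77120), alcohol dehydrogenase, had 152 and 149 in f1f3, against 1150.2 and 597 in Col, with adjusted p = 0.012, and 0.0636 without f1f3 replicate 2. Leaving out f1f3 replicate 1, f1f3 replicate 2, Col replicate 1 and Col replicate 2 in turn, 3, 1, 2 and 1 genes of the oil list rose, 5, 0, 1 and 2 starch genes rose and 3, 1, 3 and 3 glycolysis and fermentation genes fell. APL1 and ADH1 overlap a gene on the other strand.

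Glucosinolates are sulfur compounds of the cabbage order that deter herbivores once thioglucosidases split them. Of 23 genes for aliphatic glucosinolates, made from methionine, 14 rose and 1 fell (median 1.12), and 10, 6, 11 and 8 rose without f1f3 replicate 1, f1f3 replicate 2, Col replicate 1 and Col replicate 2. IPMI1 (AT3G58990) and IPMI2, isomerase subunits of side-chain elongation, had log2 fold changes of 3.53 and 3.60. IPMI1 had 145 and 137 in f1f3, against 10.3 and 12.3 in Col. CYP79F2 (AT1G16400), which turns the elongated amino acids into oximes, had 144 and 204 in f1f3, against 11.6 and 6.1 in Col (log2 fold change 4.19, SE 0.41, adjusted p = 0.00203). MYB28 (AT5G61420), the main activator of the route, had 112 and 179.9 in f1f3, against 52.7 and 39.4 in Col, with an adjusted p of 0.0104 that was 0.0638 without f1f3 replicate 2 and 0.0508 without Col replicate 2. The indole branch, made from tryptophan, had 4 rises and 0 falls in 14 genes. CYP79B2 (AT4G39950), its entry enzyme, had 3763 and 3075 in f1f3, against 1403 and 864 in Col, and its adjusted p of 0.023 was 0.0873 without f1f3 replicate 1, 0.0779 without f1f3 replicate 2 and 0.106 without Col replicate 2. Of 13 breakdown genes 0 rose and 4 fell. TGG2 (AT5G25980), a myrosinase, had 497 and 580.2 in f1f3, against 1076 and 1680.3 in Col (log2 fold change -1.32, SE 0.23, adjusted p = 0.00755), and ESM1 (AT3G14210), which steers the products away from nitriles, had 104 and 112 in f1f3, against 506 and 412 in Col (log2 fold change -2.08, SE 0.18, adjusted p = 0.00128). Of 33 sulfate genes 3 rose and 6 fell, and with library totals 6 rose. AKN2 (AT4G39940), an APS kinase that feeds glucosinolate sulfation, had 1269 and 1411 in f1f3, against 411 and 281 in Col, with an adjusted p of 0.0127 that was 0.0709 without f1f3 replicate 2 and 0.0577 without Col replicate 2, while APS4 (AT5G43780), an ATP sulfurylase, had 2464 and 1628 in f1f3, against 5958 and 4916 in Col, at -1.43. Indole rises numbered 0, 2, 2 and 2, breakdown falls 4, 3, 2 and 2 and sulfate falls 6, 3, 5 and 2 without the same 4 libraries, and APS4 overlaps a gene on the other strand.

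Among mineral nutrition lists, falls made up 32.0% of iron deficiency, 11.1% of nitrate and ammonium and 17.4% of phosphate genes, against 13.1% of all genes tested. Rises made up 12.0%, 7.41% and 8.7%, against 11.8%. Of 25 iron deficiency genes 3 rose and 8 fell (median -0.85). FRO5 (AT5G23990), a reductase of the same family as the root ferric reductase FRO2, had means of 69.5 ± 27.5 in f1f3, against 1554 ± 1118 in Col (SD, n = 2 each; log2 fold change -4.31, adjusted p = 0.00422). NAS4 (AT1G56430), which makes the metal chelator nicotianamine, had 347 and 357 in f1f3, against 90.0 and 135 in Col, with an adjusted p of 0.0126 that was 0.0663 without f1f3 replicate 2 and 0.0521 without Col replicate 1. AT3G13610, the hydroxylase that makes iron-mobilising coumarins, had 693 and 676 in f1f3, against 179.9 and 233 in Col (log2 fold change 1.74, SE 0.22, adjusted p = 0.00316) and overlaps a gene on the other strand. Of 27 nitrate and ammonium genes 2 rose and 3 fell, or 5 rose with DESeq2. NRT1.5 (AT1G32450), which loads nitrate into the root xylem and overlaps a gene on the other strand, had 1025 and 572 in f1f3, against 9636 and 9413 in Col (log2 fold change -3.63, SE 0.29, adjusted p = 0.00103). GLN1;5 (AT1G48470), a glutamine synthetase, had 114 and 162 in f1f3, against 14.1 and 20.1 in Col, at 2.94, with an adjusted p of 0.00808 that was 0.0648 without f1f3 replicate 2. Of 46 phosphate genes 4 rose and 8 fell, or 5 fell with library totals. PHO1 (AT3G23430), which loads phosphate into the xylem, had 1638 and 1618 in f1f3, against 2726 and 3740.4 in Col, with an adjusted p of 0.0198 that was 0.0605 without f1f3 replicate 1, 0.0867 without f1f3 replicate 2 and 0.115 without Col replicate 2. Iron genes that fell numbered 8, 3, 5 and 3, phosphate genes 4, 2, 3 and 2, and nitrate and ammonium genes 5, 3, 3 and 2, without f1f3 replicate 1, f1f3 replicate 2, Col replicate 1 and Col replicate 2. Several of these genes are known from roots, where the summed root marker values above also differed, and the part of that difference in these results was not tested.

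Cell wall families were divided, with large changes both ways. Of 24 expansins, which loosen walls, 6 rose and 5 fell, and of 26 xyloglucan enzymes 6 and 8. Of 125 pectin enzymes 14 rose and 20 fell, and of 46 cellulose synthases and relatives 6 and 14. Pectin enzymes were near the background, with 11.2% higher and 16% lower, against 11.8% and 13.1% of all genes tested. Expansins had 25% higher and 20.8% lower, and xyloglucan enzymes 23.1% and 30.8%. Falls made up 30.4% of the cellulose list, whose share of rises was near the background. Several genes that rose are known from root hairs. XTH14 (AT4G25820), an endotransglucosylase of root hairs, had 4225 and 4524 in f1f3, against 729 and 1248 in Col (log2 fold change 2.196, adjusted p = 0.00435). XTH12 (AT5G57530), a near relative of it, had 1175 and 1745 in f1f3, against 149 and 278 in Col. EXPA15 (AT2G03090) had 1267 and 1359 in f1f3, against 348 and 467 in Col (log2 fold change 1.70, SE 0.20, adjusted p = 0.00266). The root marker genes PRP3 (AT3G62680), a proline-rich wall protein, and LRX1 (AT1G12040), a leucine-rich repeat extensin, had log2 fold changes of 2.29 and 1.91. Their adjusted p was 0.062 without f1f3 replicate 2 for PRP3 and 0.0803 without f1f3 replicate 1, 0.121 without f1f3 replicate 2 and 0.109 without Col replicate 1 for LRX1. Of the 11 root markers 5 rose and 1 fell, and their part in the wall results was not tested. Among the falls ATPMEPCRD (AT2G43050), a pectin methylesterase, had 2071 and 518 in f1f3, against 14921 and 9499.8 in Col (log2 fold change -3.52, SE 0.55, adjusted p = 0.00545). The f1f3 libraries stood far apart there, and both lay below both Col libraries. With each library left out in turn, pectin falls numbered 21, 7, 10 and 11, pectin rises 6, 4, 8 and 5 and xyloglucan falls 7, 4, 4 and 5.

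Genes of the secondary wall were among the largest falls of the cellulose and lignin lists, and they were named for those falls. No list of secondary wall genes was counted, and the medians of the cellulose and lignin lists were -0.03 and -0.01. IRX1 (AT4G18780), a cellulose synthase of xylem walls, had 172 and 153 in f1f3, against 614 and 572 in Col (log2 fold change -1.87, SE 0.20, adjusted p = 0.00237). IRX12 (AT2G38080) and LAC17 (AT5G60020), laccases that link lignin, had log2 fold changes of -1.98 and -2.21, and CTL2 (AT3G16920), a chitinase-like protein of cellulose deposition in secondary walls, had -2.25. Of 27 lignin and phenylpropanoid genes 5 fell and 2 rose, or 4 rose with library totals or with the 4 libraries alone. At the surface, of 55 cutin, wax and suberin genes 12 rose and 4 fell, or 2 fell with edgeR or with the 4 libraries alone. HTH (AT1G72970), which keeps organs from fusing through the cuticle, had 6617 and 5679.9 in f1f3, against 2345 and 1813 in Col (log2 fold change 1.57, SE 0.21, adjusted p = 0.00381), while CDEF1 (AT4G30140), a cutinase of the GDSL family, had 132 and 176 in f1f3, against 1543 and 1389 in Col (log2 fold change -3.26, SE 0.23, adjusted p = 0.000857). Of 47 arabinogalactan proteins 10 rose and 3 fell, or 5 fell with DESeq2, and AGP3 (AT4G40090) had 3615 and 2854 in f1f3, against 965 and 1079.9 in Col. Of 16 flavonoid genes 6 rose and 1 fell. TT5 (AT3G55120), chalcone isomerase, had 211 and 303 in f1f3, against 86.1 and 95.4 in Col, with an adjusted p of 0.00986 that was 0.0639 without f1f3 replicate 2. In the fits without f1f3 replicate 1, f1f3 replicate 2, Col replicate 1 and Col replicate 2, the lignin genes that fell numbered 5, 3, 4 and 4, the expansins that rose 4, 3, 3 and 3, the arabinogalactan genes that rose 4, 3, 9 and 3, the cellulose genes that fell 11, 8, 8 and 8, the surface genes that rose 7, 8, 10 and 7 and the flavonoid genes that rose 3, 0, 4 and 2. IRX1, LAC17 and CDEF1 overlap a gene on the other strand.

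The families of specialised metabolism and detoxification differed in direction. Of 166 cytochromes P450, oxygenases of many pathways, 21 rose and 49 fell (median -0.51), with 166 of 222 in the files tested. CYP96A9 (AT4G39480) had 12.7 and 10.5 in f1f3, against 131 and 156 in Col (log2 fold change -3.52, SE 0.30, adjusted p = 0.00118). CYP94B1 (AT5G63450), which inactivates the hormone jasmonoyl-isoleucine, had 20.1 and 11.4 in f1f3, against 195 and 130.4 in Col, at -3.31. CYP71A20 (AT4G13310) had 2 reads in f1f3, against 211 in Col, a Col to f1f3 ratio of 114 with an exact 95% interval of 31.3 to 951 for counting error. CYP71A20 passed the filter on low values only through Col. Glutathione transferases, which attach glutathione to toxins, went the other way in count, with 8 of 38 higher and 2 lower. GSTF6 (AT1G02930) had 1647 and 1289 in f1f3, against 202 and 325 in Col (log2 fold change 2.50, SE 0.35, adjusted p = 0.00421), and GSTU25 (AT1G17180) had 924 and 794 in f1f3, against 263 and 191 in Col. Class III peroxidases, secreted enzymes that stiffen or loosen walls, had 16 rises and 19 falls in 62 genes, shares of 25.8% and 30.6%. AT3G49960, described as a peroxidase, had 1221 and 1935 in f1f3, against 217 and 296 in Col, whereas AT5G64110, another, had 14.8 and 7.0 in f1f3, against 177 and 135 in Col. Of 106 UDP-glycosyltransferases 4 rose and 17 fell, while 8 rose with library totals, and 7 with DESeq2 or with the 4 libraries alone. Of 17 genes described as FAD-binding Berberine family, which include oligosaccharide oxidases, 2 rose and 9 fell. P450 falls numbered 43, 26, 28 and 26 and peroxidase falls 22, 11, 13 and 13 without f1f3 replicate 1, f1f3 replicate 2, Col replicate 1 and Col replicate 2. In the same fits UDP-glycosyltransferase falls numbered 16, 3, 8 and 5, Berberine family falls 8, 3, 8 and 5, and glutathione transferase rises 5, 7, 6 and 6.

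NLR receptor genes held falls and no rises, while leucine-rich repeat kinases and secreted defence proteins had calls both ways. Of 129 NLR genes, which encode receptors inside the cell for pathogen effectors, 0 rose and 27 fell, or 20.9% against the background of 13.1%, with a median of -0.61. A further 15 of the 144 NLR genes in the files were not tested. AT1G58602 had 196 and 166 in f1f3, against 724 and 1125 in Col (log2 fold change -2.32, SE 0.23, adjusted p = 0.00214), and RPP13 (AT3G46530), a receptor for downy mildew, had 31.8 and 36.9 in f1f3, against 145 and 226 in Col, at -2.37. A W-box (TTGACC or TTGACT), the core bound by WRKY factors, lay in 58.1% of NLR promoters and 32.8% of all promoters. Over the genome it was not more frequent in fallen genes, at 29.6% of their promoters against 31.1% in risen genes. Of 59 wall-associated and lectin kinases 1 rose and 14 fell. Of 18 cysteine-rich receptor kinases 0 rose and 4 fell, and of 151 leucine-rich repeat receptor kinases 19 rose and 24 fell, or 15 fell with library totals. AT1G10850, a receptor kinase of the last kind, had 2177 and 2256 in f1f3, against 964 and 915 in Col (log2 fold change 1.24, SE 0.15, adjusted p = 0.00313). Of 50 pathogenesis-related proteins and defensins 11 rose and 10 fell. AT1G50060, a secreted CAP protein, had 913 and 1038 in f1f3, against 68.1 and 116 in Col, while AT4G07820, of the same family, had 57.2 and 18.4 in f1f3, against 897 and 694 in Col. Their log2 fold changes were 3.44 and -4.55, and the absence of overlap between the genotypes was a condition for naming them. NLR falls numbered 14, 13, 20 and 8 and those of wall-associated and lectin kinases 15, 4, 7 and 2 without f1f3 replicate 1, f1f3 replicate 2, Col replicate 1 and Col replicate 2. Leucine-rich repeat kinases gave 13, 1, 7 and 2 rises and 13, 7, 13 and 5 falls in those fits, cysteine-rich kinases 3, 1, 2 and 2 falls, and defence proteins 8, 7, 7 and 7 rises. RPP13 and AT1G10850 overlap a gene on the other strand and AT1G58602 one on its strand, and NLR copies can share reads.

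Hormone and clock lists held few rises. Of 25 brassinosteroid genes 0 rose and 10 fell (median -0.71). PRE1 (AT5G39860), a growth-promoting helix-loop-helix protein, had 76.2 and 56.2 in f1f3, against 189 and 193 in Col (log2 fold change -1.53, SE 0.27, adjusted p = 0.00749). Of 12 strigolactone and karrikin genes 0 rose and 7 fell. KAI2 (AT4G37470), the karrikin receptor, had 216 and 106 in f1f3, against 474 and 370.2 in Col, with an adjusted p of 0.0171 that was 0.0665 without f1f3 replicate 2 and 0.0696 without Col replicate 1. Of 36 jasmonate genes 2 rose and 7 fell (19.4%), and of 39 cytokinin genes 1 rose and 5 fell, or 3 fell with library totals. The cytokinin falls, 12.8%, were near the background of 13.1%. Falls made up 37.8% of 74 abscisic acid, 33.3% of 24 gibberellin and 24.1% of 29 ethylene genes, and rises 5.41%, 4.17% and 3.45%. In each of these lists fewer genes were called lower without f1f3 replicate 2 or without either Col replicate. Falls made up 10.9% of 110 auxin response and 12.5% of 16 salicylic acid genes, and rises 4.55% and 0%. ARR11 (AT1G67710), a cytokinin response regulator, had 70.9 and 59.7 in f1f3, against 166 and 256 in Col (log2 fold change -1.65, SE 0.28, adjusted p = 0.00731). Of 28 clock genes 0 rose and 5 fell, or 11 fell with DESeq2. LCL1 (AT5G02840), a MYB factor of the CCA1 family, had 437 and 447 in f1f3, against 1510.0 and 1802 in Col (log2 fold change -1.90, SE 0.24, adjusted p = 0.00316). In fits without f1f3 replicate 1, f1f3 replicate 2, Col replicate 1 and Col replicate 2, 7, 3, 5 and 4 brassinosteroid genes, 6, 2, 3 and 2 strigolactone and karrikin genes and 8, 4, 4 and 4 jasmonate genes fell. Clock genes that fell in those fits numbered 6, 4, 7 and 7, and cytokinin genes 3, 2, 2 and 3.

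Unlike WRKY and homeodomain factors, the basic helix-loop-helix, MYB, NAC, bZIP and MADS transcription factors had more falls than rises in each setting tried. Their shares of falls ran from 14.8% in MADS factors, near the background of 13.1%, to 23.1% in basic helix-loop-helix factors. Among the lists not counted here, only growth-regulating and TCP factors had more rises than falls, the latter 1 and 0 in 17 genes. WRKY factors had 4 rises and 9 falls in 57 genes, or 5 and 3 with library totals. Of 108 basic helix-loop-helix factors 5 rose and 25 fell, of 99 MYB factors 5 and 22, of 65 NAC factors 3 and 13, and of 45 bZIP factors 1 and 9. Homeodomain factors had 7 rises and 9 falls in 88 genes, below the background of both directions, and 9 rises and 6 falls with library totals. MYB48 (AT3G46130) had 56.1 and 56.2 in f1f3, against 321 and 396 in Col (log2 fold change -2.65, SE 0.22, adjusted p = 0.00118). AT3G15510 and AT3G15500, NAC genes that lie near each other on chromosome 3, had low values in f1f3, with 52.9 and 18.4 in f1f3, against 301 and 365 in Col for AT3G15510 and 34.9 and 11.4 in f1f3, against 149 and 187 in Col for AT3G15500. BZO2H3 (AT5G28770), the bZIP63 factor of the starvation response, had 135 and 86.0 in f1f3, against 355 and 335 in Col (log2 fold change -1.67, SE 0.29, adjusted p = 0.00746). Of 27 MADS factors, known from floral timing and organs, 0 rose and 4 fell. FLC (AT5G10140) and SVP (AT2G22540), repressors of flowering, were among them. FLC had 63.5 and 61.4 in f1f3, against 315 and 269 in Col (log2 fold change -2.202, adjusted p = 0.00237), and SVP had 38.1 and 37.7 in f1f3, against 125 and 123 in Col (log2 fold change -1.68, SE 0.26, adjusted p = 0.00542). AGL44 (AT2G14210), also called ANR1 and known from nitrate-guided root branching, had 44.5 and 45.6 in f1f3, against 326 and 281 in Col. In these 3 genes the replicates agree closely in each genotype. HDG12 (AT1G17920), an epidermal homeodomain factor, had 486 and 762 in f1f3, against 129 and 158 in Col (log2 fold change 2.09, SE 0.26, adjusted p = 0.00313). MYB66 (AT5G14750), WEREWOLF of the root epidermis, had 130.2 and 179 in f1f3, against 39.8 and 61.3 in Col, with an adjusted p of 0.0153 that was 0.0937 without f1f3 replicate 2 and 0.0709 without Col replicate 1. Falls numbered 17, 11, 13 and 11 for helix-loop-helix, 14, 7, 11 and 7 for MYB and 11, 7, 9 and 8 for NAC factors without f1f3 replicate 1, f1f3 replicate 2, Col replicate 1 and Col replicate 2. They numbered 5, 2, 4 and 2 for bZIP, 3, 4, 3 and 3 for MADS and 6, 2, 2 and 2 for homeodomain factors, which had 3, 4, 5 and 2 rises. FLC and HDG12 overlap a gene on the other strand.

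Genes for RNA-binding proteins of organelles rose in number, while the share of rises in the respiratory chain, 12.8%, was near the background of 11.8%. Of 254 pentatricopeptide repeat genes, whose proteins bind, edit and splice RNA in plastids and mitochondria, 60 rose and 7 fell (median 0.66). Of these, emb1796 (AT3G49240) had 699 and 879 in f1f3, against 217 and 195 in Col (log2 fold change 1.92, SE 0.29, adjusted p = 0.00525). AT5G04810, in contrast, had 1572 and 1591 in f1f3, against 3251 and 4167 in Col, at -1.22. The rises numbered 32, 7, 26 and 23 without f1f3 replicate 1, f1f3 replicate 2, Col replicate 1 and Col replicate 2. Of 47 nuclear genes of the mitochondrial respiratory chain 6 rose and 0 fell, or 12 rose with library totals, and 4, 2, 3 and 2 with each library left out in turn. NDB2 (AT4G05020), an external NADH dehydrogenase that bypasses complex I, had 1585 and 2104 in f1f3, against 495 and 603 in Col (log2 fold change 1.74, SE 0.20, adjusted p = 0.00273), while its relative NDB3 (AT4G21490) had 33.9 and 61.4 in f1f3, against 147 and 268 in Col, with an adjusted p of 0.0106 that was 0.0633 without Col replicate 2. The gene emb1796 overlaps one on the other strand and NDB3 one on its strand.

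By the kind of transcript, 8 of 41 annotated long non-coding RNAs fell (19.5%) and 1 rose (2.44%). Of 90 other non-coding RNAs 16 fell (17.8%) and 5 rose (5.56%), and of 17 miRNA precursor loci 3 fell (17.6%) and 0 rose. Pseudogenes had 15 rises (9.2%) and 24 falls (14.7%) among 163, near the background. Over all genes tested 11.8% rose and 13.1% fell. Calls were rarer at low levels. Among the 4044 genes with the lowest mean values, from 5.2 to 69.7, 5.49% rose and 8.43% fell, against 14.1% and 17.4% among the 4044 with the highest. The shares by chromosome ran from 11.1% to 12.6% for rises and from 12.5% to 13.9% for falls. Among the 4002 genes with the longest exonic sequence, from 2606 bases, 9.52% rose, against 12.6% among the 4010 with the shortest, up to 1177 bases.

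Promoter letters differed between genes that rose and genes that fell over the genome. The window ran from 250 bases before to 50 after the annotated start, and a motif counted on either strand. The telo-box AAACCCTA lay in 14.1% of the promoters of risen genes, 2.34% of those of fallen genes and 5.38% of all 19574. For site II, TGGGCC or TGGGCT, the shares were 38.3%, 17.1% and 25.2%, and for E2F sites 3.43%, 1.29% and 1.64%. The telo-box and site II are known from promoters of ribosomal and dividing-cell genes. Here the telo-box lay in 38 of 95 and site II in 65 of 95 ribosomal protein promoters. They lay in 34.5% and 58.6% of those for ribosome assembly, and site II in 58.5% of proteasome promoters. Fallen genes had higher shares of the I-box, at 21.3% against 11.7% in risen genes and 14.7% in all. The same held for TATCCA, at 22.2% against 13.8% and 16.4%, and these 2 motifs can share letters. AACGG, the core of a mitotic MYB site, lay in 30.3% of risen and 22.7% of fallen promoters, and in 65.0% of histone and 54.8% of kinesin promoters. The G-box CACGTG, bound by PIFs and HY5, was in 7.49% of risen promoters, 258 of 2568 fallen ones and 8.81% of all, and its core ACGTG, which every G-box holds, in 25.5%, 32.4% and 28.0%. For the W-box, the evening element AAAATATC, CCAAT and TATAAA the 3 shares lay within 4 percentage points of each other.

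**Figure D5:**
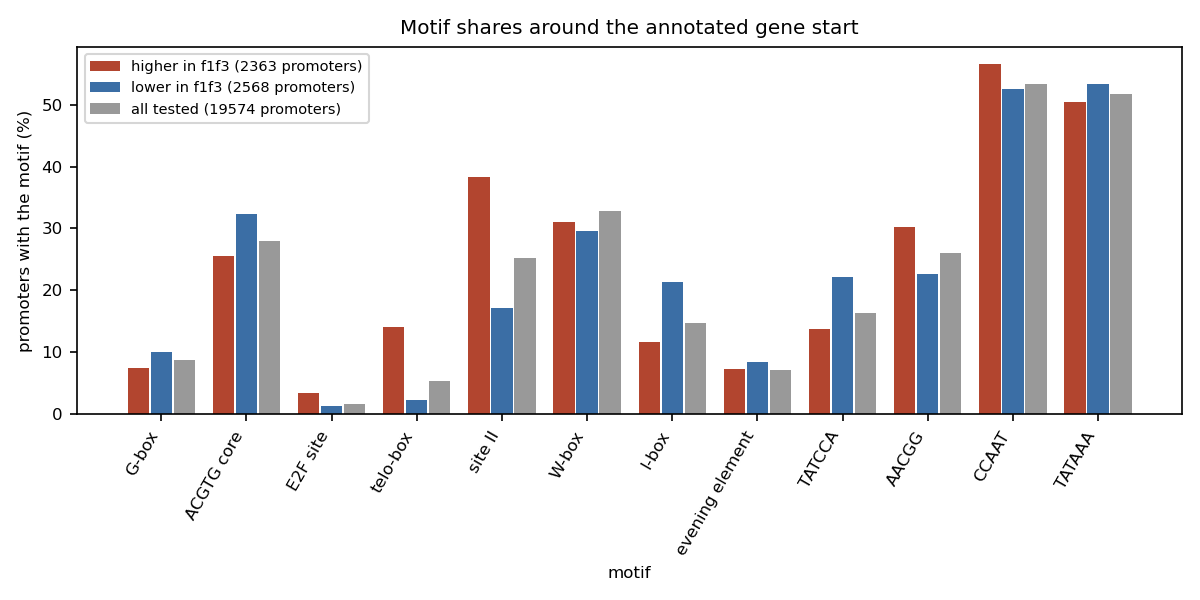
Share of promoters (percent) with each of 12 motifs on either strand, for genes called higher in f1f3 (red, 2363 promoters), called lower (blue, 2568) and all tested (grey, 19574). The telo-box and site II bars are tallest for genes called higher, the I-box and TATCCA bars for genes called lower.

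Read the other way, 31.6% of the 1054 genes with a telo-box rose and 5.69% fell, and 25.2% of the 321 genes with an E2F site rose. Of the 459 genes with both a telo-box and a site II, a combination taken after the values were seen, 38.6% rose and 3.70% fell. Of the 2881 genes with an I-box 9.58% rose and 19.0% fell. FIB1 (AT5G52470), the paralogue of FIB2, and the ribosomal protein genes AT2G37600 (L36e) and AT2G44860 (L24e) carry both motifs and rose by 0.88, 1.28 and 1.19 on the log2 scale (adjusted p = 0.0279, 0.0114 and 0.00777). Their 250 bases before the start (chr5:21293897-21294146, plus strand; chr2:15775375-15775624, minus strand; chr2:18502563-18502812, minus strand; TAIR10.1) are shown with both motifs in capitals.
FIB1: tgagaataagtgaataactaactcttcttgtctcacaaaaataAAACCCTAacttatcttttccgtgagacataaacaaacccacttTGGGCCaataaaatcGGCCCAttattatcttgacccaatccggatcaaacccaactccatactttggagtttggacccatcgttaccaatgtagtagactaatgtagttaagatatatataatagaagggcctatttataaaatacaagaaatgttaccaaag
AT2G37600: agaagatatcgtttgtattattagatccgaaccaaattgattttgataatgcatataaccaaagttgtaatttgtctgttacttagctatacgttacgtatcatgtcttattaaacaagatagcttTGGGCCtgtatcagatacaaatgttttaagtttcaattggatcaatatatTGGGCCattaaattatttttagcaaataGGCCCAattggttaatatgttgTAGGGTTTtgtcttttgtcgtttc
AT2G44860: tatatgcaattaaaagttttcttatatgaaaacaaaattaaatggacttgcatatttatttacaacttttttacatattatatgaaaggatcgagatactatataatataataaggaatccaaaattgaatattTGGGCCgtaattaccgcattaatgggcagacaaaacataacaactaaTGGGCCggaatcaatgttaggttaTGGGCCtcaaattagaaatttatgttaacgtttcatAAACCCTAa
Telo-boxes read AAACCCTA or TAGGGTTT and the site II letters shown read TGGGCC or GGCCCA. FIB1 overlaps a gene on its strand and AT2G44860 one on the other strand.

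The largest single changes lay outside the lists in several cases. AT3G28915, an uncharacterised gene, had 4 reads in f1f3 against 9966 in Col, a Col to f1f3 ratio of 2700 with an exact 95% interval of 1060 to 9920 that covers counting error only. AT5G33355, described as defensin-like, had 2 reads in f1f3 against 343 in Col, a ratio of 186 (51.1 to 1540). Both genes passed the filter on low values only through Col. AT1G19530, named in the annotation after a DNA polymerase subunit, had 29.6 and 29.0 in f1f3, against 2009 and 2335 in Col (log2 fold change -6.16, SE 0.18, adjusted p = 1.01e-05), with f1f3 replicates almost alike. AT4G25580, described as CAP160, had 24.3 and 7.0 in f1f3, against 605 and 1487 in Col, and AT2G05510, a glycine-rich protein gene, had 33.9 and 11.4 in f1f3, against 1337 and 852 in Col. Among the rises AT2G01422, a non-coding RNA, had 138 and 159.7 in f1f3, against 2.6 and 3.5 in Col. Its fold rests on few Col reads, and it passed the filter on low values only through f1f3. AT5G24240, a phosphatidylinositol 4-kinase gamma-like gene, had 899 and 735 in f1f3, against 32.1 and 38.5 in Col (log2 fold change 4.49, SE 0.35, adjusted p = 0.00103) and overlaps a gene on the other strand. AT4G12870, a thiol reductase of the GILT family, had 426 and 657 in f1f3, against 45.0 and 25.4 in Col (log2 fold change 3.93, SE 0.40, adjusted p = 0.00214). AT5G01870, a lipid-transfer protein gene, had 1429 and 1196 in f1f3, against 111 and 79.6 in Col (log2 fold change 3.79, SE 0.25, adjusted p = 0.000841). GSTU12 (AT1G69920) and AT1G26380, of the Berberine family, had few reads in Col, with 159.9 and 68.5 in f1f3, against 6.4 and 4.4 in Col for GSTU12 and 117 and 71.1 in f1f3, against 3.9 and 8.8 in Col for AT1G26380. Both passed the filter on low values only through f1f3. The adjusted p of AT1G26380 was 0.0729 without Col replicate 1, and without either f1f3 library it was below the filter on low values. CYP71A12 (AT2G30750), of camalexin synthesis, had 164 and 102 in f1f3, against 3.9 and 24.5 in Col, with an adjusted p of 0.0499. It was 0.164 without f1f3 replicate 1, 0.134 without f1f3 replicate 2 and 0.186 without Col replicate 1, and 0.0633 with edgeR and its RLE factors or 0.0848 with DESeq2.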

How the data were processed

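RNA of dark-grown seedlings was sequenced in 6 libraries, 2 each of f1f3, Col and pifq. The authors deposited 1 signal value per gene and library, which is gene reads divided by a size factor. Per the submitters' processing notes, which give no order or settings, the build was TAIR10 and the tools named are edgeR, HTSeq 0.6.1, Trimmomatic and TopHat2 2.1.0. Whole multiples of the value of 1 read, within 0.0505, made up 99.98% to 100% of the values, and the reads they give were used for depth and for count tests. The kit's strand setting is not given in the sources used here. Gene names and promoters came from TAIR10.1 (24148 of 24439 IDs matched). No promoter table was used, so windows were read from the genome.

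Genes that reached 10 in 2 or more of the f1f3 and Col libraries were tested with limma 3.58.1 (R 4.3.3) on log2(value + 1), with an intensity trend, all 6 libraries in 1 fit (3 residual degrees of freedom, which the pifq libraries share), 2-sided, and Benjamini-Hochberg adjustment over all genes tested. P-values set the difference between f1f3 and Col against the spread between replicates of these samples, pooled over all 6 libraries and moderated along that trend. A fold change on this scale understates the change of low genes. Alternatives were edgeR 4.0.16 and DESeq2 1.42.0 on the recovered reads, library totals, pseudocounts of 0.5 and 10, other filters, the 4 libraries alone, a replicate block and leaving out each library. The test was checked on simulated data.

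The 94 gene lists (7227 distinct genes, by symbol or description, so loose members can occur) and all choices were made with earlier results of these data known. Of the symbols listed, 56 were not found. A pair of hemoglobin genes was removed from the homeodomain list after values were seen. Genes were named by a rule, which took FYPP1, FYPP3, the 12 largest rises and falls, and up to 3 genes per direction in each list. These had a mean value of at least 50 over the 4 libraries, an adjusted p under 0.05 and no overlap of the genotypes. MCM5, MCM6, FIB1, AT2G37600, AT2G44860, TPS8, TPS11 and genes with few reads that lie outside it were chosen after their values were seen.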

Additional observations from a re-analysis of the deposited data

How the results depend on the processing

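The fits by edgeR, DESeq2, library totals, the other pseudocounts and filters, and the 4 libraries alone called between 4641 and 5964 genes, against 5035, and in none of the alternatives run was a gene of the main calls called in the opposite direction. Leaving out 1 library at a time called 1598 to 3528 genes, 610 to 1360 higher and 988 to 2168 lower, with the lowest counts without f1f3 replicate 2. The cause was not tested, though each such fit also has fewer samples. With library totals 2931 genes were higher and 2093 lower. With the replicate number as a replicate block, 7434 genes were called, 3622 higher and 3812 lower. That block moved 64 of the list counts by over 1.5 times and left 124 within it, and with it 30 histone genes and 15 respiratory chain genes were higher and 17 clock genes lower. The deviations of same-numbered libraries correlated at 0.365 between f1f3 and Col, 0.462 between pifq and Col and 0.22 between f1f3 and pifq. With 2 replicate numbers, and labels that tie no number to a shared day or batch, pairing was not taken as shown. Depth limits the lowest genes most, and intervals on read ratios cover counting error only. Medians of 29 lists, among them those of pectin and xyloglucan enzymes, cellulose synthases, lipid-transfer proteins, UDP-glycosyltransferases and starch, changed sign in at least 1 setting.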
